A study of Mus musculus with 36 samples.

Results

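The genes described here are 8 transcription factor genes of trophoblast, the lineage of the placenta, followed in mouse embryonic stem cells under stress and differentiation: Hand1, Eomes, Gata2, Gata3, Cdx2, Tcfap2c, Elf5 and Ascl2. They were taken by symbol from count tables of 21516 genes, in which all 8 have a row. Levels were measured by 3' RNA sequencing, which counts reads near the end of each messenger RNA, in 36 libraries of 12 culture conditions with 3 separate experiments each. Values after ± are SDs over the 3 libraries of a group. All cells were of 1 line of 129/sv embryonic stem cells with FUCCI transgenes, fluorescent reporters of cell cycle phase, and all were lysed after 72 h in medium with 15% serum. Sorb300 cells received 300 mM sorbitol, a sugar alcohol that raises the osmolarity of the medium, with the cytokine leukemia inhibitory factor (LIF) at 1000 U/mL. RA cells received 1 µM retinoic acid and no LIF. ND cells, labelled as normal differentiation, had no LIF and no agent. In 8 toxicant groups the cells kept LIF and received 1 µM BP (BP1), 4 µM BP (BP4), 10 µM cortisol (Cort10), 60 µM cortisol (Cort60), 5 µM DEP (DEP5), 10 µM DEP (DEP10), 60 µM PFOA (PFOA60) or 100 µM PFOA (PFOA100), the lower dose of each being the lowest at which an effect on growth had been seen. NS cells, labelled as normal stemness, had LIF and no agent. RA and Sorb300 therefore differ in LIF as well as in the agent.

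Trophoblast arises from the trophectoderm, the outer layer of the blastocyst, whereas embryonic stem cells correspond to the inner cells that form the embryo and do not normally make it. In the mouse, Cdx2, Eomes, Elf5, Tcfap2c and Gata3 act in the specification of trophectoderm and in the self-renewal of trophoblast stem cells. Gata2, Ascl2 and Hand1 act later, when these cells become spongiotrophoblast and trophoblast giant cells. None of the 8 is used by trophoblast alone: Eomes also acts in the primitive streak, Hand1 in the heart and extraembryonic mesoderm, Cdx2 in the hind part of the body axis, and Tcfap2c in primordial germ cells.

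RefSeq promoter windows (GRCm38.p6, 250 bases before to 50 after the start site) were found for 6 of the 8 genes, 8 windows in all, for Gata3, Cdx2, Eomes and Ascl2 with 1 window each and for Gata2 and Elf5 with 2 each. No window is shown for Hand1 or Tcfap2c. Because the product of Tcfap2c is an AP-2 factor, the windows were searched on both strands for the AP-2 word GCCNNNGGC, which 16.6% of 32851 windows of this length hold. It stands in 3 of the 8 windows, and these are printed 5′ to 3′ on the gene's strand with the AP-2 words in capitals. They are Gata3 (chr2:9878551-9878850, minus strand), Cdx2 (chr5:147307200-147307499, minus strand) and the second Gata2 window (chr6:88198414-88198713, plus strand).
Gata3: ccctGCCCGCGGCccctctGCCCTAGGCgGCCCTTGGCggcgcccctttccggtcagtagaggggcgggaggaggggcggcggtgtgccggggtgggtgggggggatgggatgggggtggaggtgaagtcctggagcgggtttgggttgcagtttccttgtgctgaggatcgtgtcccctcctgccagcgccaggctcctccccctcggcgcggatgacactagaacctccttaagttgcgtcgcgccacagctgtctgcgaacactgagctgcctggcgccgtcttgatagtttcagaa
Cdx2: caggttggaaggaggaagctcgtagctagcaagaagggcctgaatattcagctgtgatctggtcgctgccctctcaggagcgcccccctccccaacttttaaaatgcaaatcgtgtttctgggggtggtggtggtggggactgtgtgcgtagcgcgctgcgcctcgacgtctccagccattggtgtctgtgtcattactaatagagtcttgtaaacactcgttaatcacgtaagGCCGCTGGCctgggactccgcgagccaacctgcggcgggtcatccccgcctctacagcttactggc
Gata2: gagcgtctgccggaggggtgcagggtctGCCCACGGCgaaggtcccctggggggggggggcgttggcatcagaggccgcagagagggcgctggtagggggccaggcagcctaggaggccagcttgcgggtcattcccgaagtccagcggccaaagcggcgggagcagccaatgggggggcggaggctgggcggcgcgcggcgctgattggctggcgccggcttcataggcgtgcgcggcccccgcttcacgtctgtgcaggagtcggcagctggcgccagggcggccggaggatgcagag
The Gata3 window holds the AP-2 word 3 times, at -246, -231 and -221 from the start site, and the Cdx2 window once, at -16. G and C make up 67.3% of the Gata3 window, 57.3% of the Cdx2 window and 73.7% of the second Gata2 window. The median over all windows is 52.7%, and the 16.6% share of windows with the AP-2 word was not matched for this. Words of the GATA family (the word AGATAA, the word AGATAG, the word TGATAA and the word TGATAG, on either strand) stand in 29.8% of all windows and here in those of Gata3, at 36, and Elf5, in its first window. The T-box word TCACACC stands in 3.98% of all windows and here in the first Gata2 and the second Elf5 window. None of the 8 windows holds AGGTCA, the half-site of retinoid receptors, which 16.3% of all windows hold. The count of CG pairs also varies among the windows: 22 for Gata3, 18 for Cdx2, 32 and 29 for Gata2, 23 for Ascl2 and 10 for Eomes, against 3 and 10 for Elf5 and a median of 7 over all windows. A word found here is a match of letters, not a binding site.

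The libraries held 1848254 to 7288084 counts each (median 4822563), and 3 counts stood at 0.395 to 1.85 CPM, the count scaled to a common library total after TMM scaling. Of the 21516 genes 13498 had enough counts to be tested, among them 7 of the 8 described here. Elf5 did not. Replicate libraries differed beyond counting error (chi-square per degree of freedom 5.15 to 63.0). The markers that define embryonic stem cells were present in NS, as given with the other marker lists. Levels are compared between groups and not between genes, and in these bulk samples fewer cells expressing a gene and less RNA per cell cannot be told apart.

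Over NS, 5 of these genes were higher in Sorb300 and 2 in RA, and Hand1 and Eomes had the smallest adjusted p between the 2 treatments. In Sorb300 against NS, 5 of the 7 tested genes were higher and 0 lower: Hand1, Eomes, Gata3, Cdx2 and Ascl2. Over all genes tested 30.4% were called in that comparison, 15.1% higher and 15.2% lower. In RA against NS, Gata3 and Hand1 were higher and Tcfap2c was lower, where 24.1% of all genes were called, 10.3% higher and 13.8% lower. In Sorb300 against RA, 4 genes were higher and 0 lower (Hand1, Eomes, Ascl2 and Tcfap2c), where 38.1% of all genes were called, 20.6% higher and 17.5% lower. The median log2 fold change over the 7 tested genes was 3.83 in Sorb300 against NS, 1.83 in RA against NS and 1.49 in Sorb300 against RA, against 0.00, 0.00 and 0.01 over all genes tested. The comparisons with NS share the same NS libraries.

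**Figure D1:**
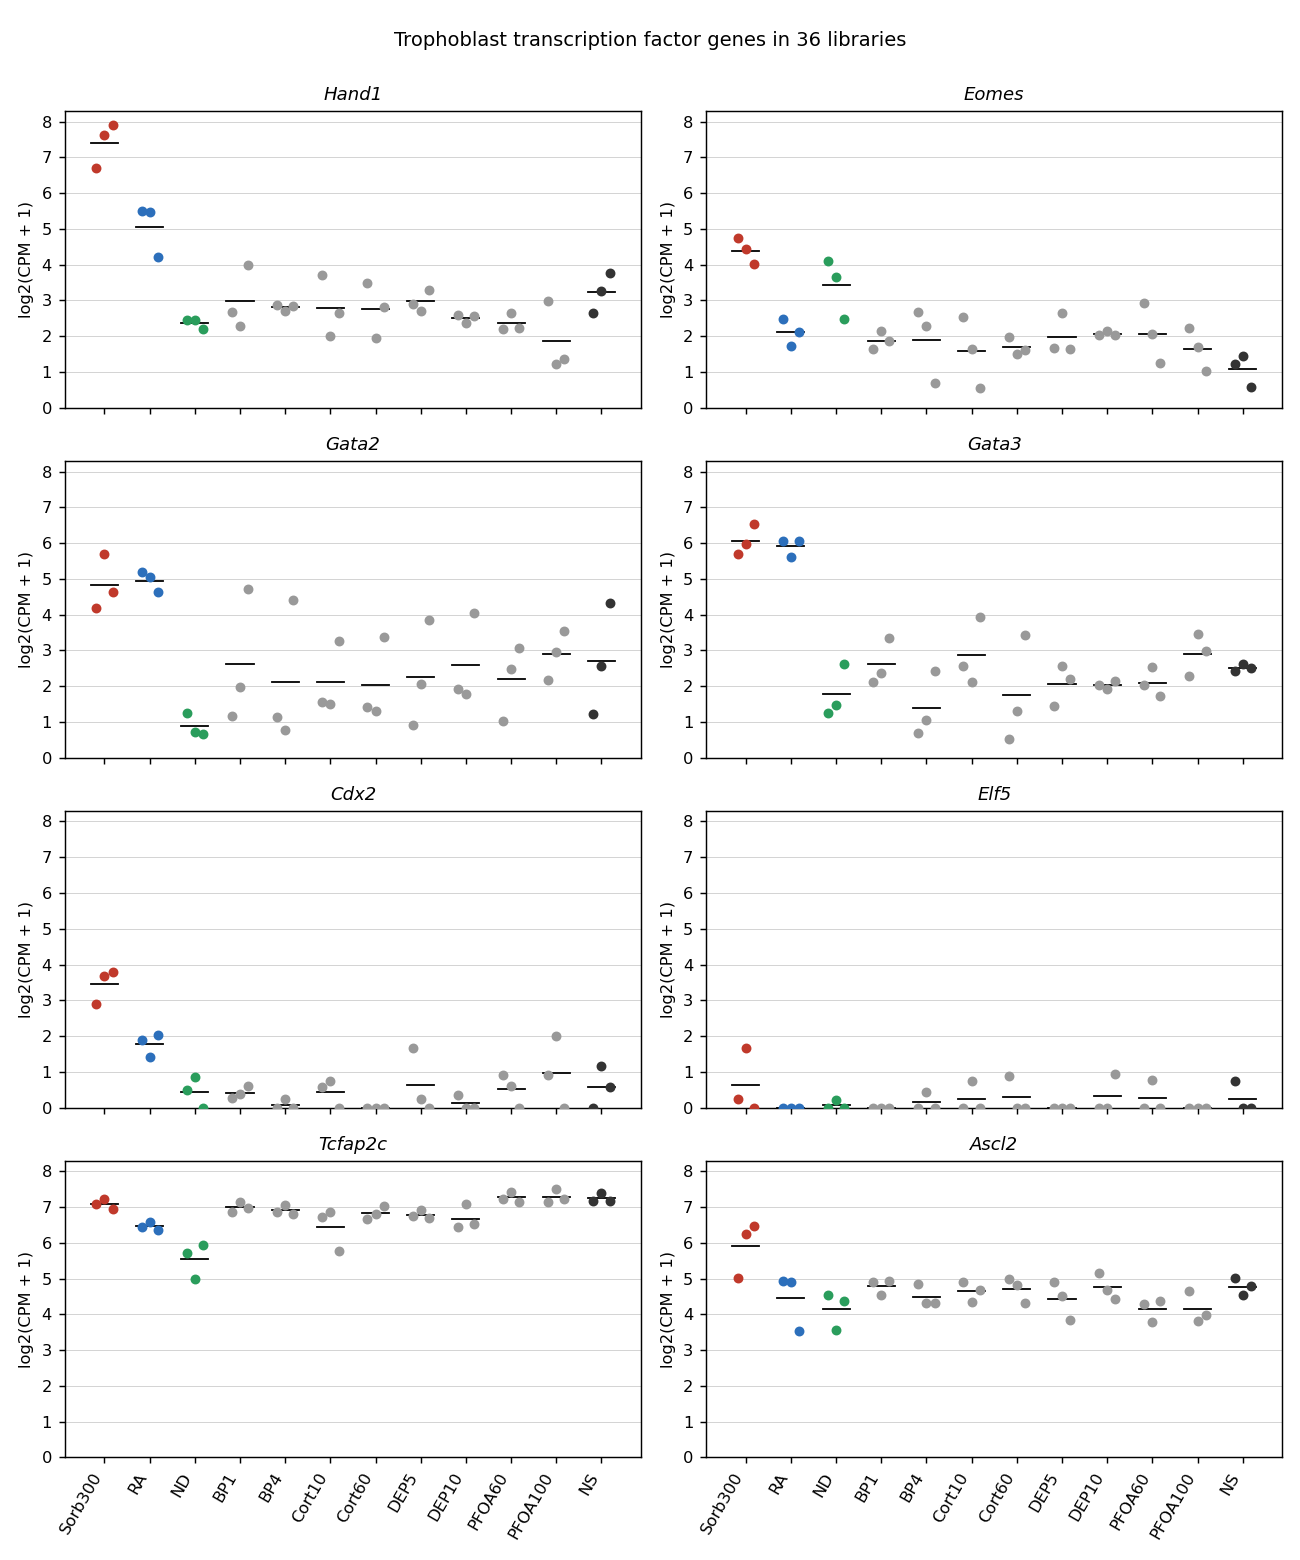
Levels of the 8 trophoblast transcription factor genes in the 36 libraries, as log2(CPM + 1), with 1 point per library and a line at the group mean of these log2 values. Hand1 is highest in the 3 Sorb300 libraries and next in the 3 RA libraries, Gata3 is high in both of these groups alike, and Tcfap2c is lowest in ND.

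Cdx2, a homeobox factor of trophectoderm that acts against the stem cell programme, had its highest level in Sorb300 and few counts elsewhere. It stood at 6.43, 11.9 and 12.9 CPM in Sorb300 libraries 1 to 3, at 2.67, 1.64 and 3.05 CPM in RA, at 0.393, 0.805 and 0 CPM in ND and at 0, 1.23 and 0.497 CPM in NS. These levels rest on 28 to 49 counts per Sorb300 library, 5 to 21 per RA library and 0 to 5 per NS library. Every Sorb300 library lay above every RA library, and every RA library above every NS library. The rise passed the test in Sorb300 against NS (16.3-fold, log2 fold change 4.03, SE 1.08, adjusted p = 0.00469), with a log2 fold change of 5.11 without NS library 2. In RA against NS it did not (log2 fold change 1.99, 95% interval -0.17 to 4.15, adjusted p = 0.174, and 3.14 without NS library 2), nor in Sorb300 against RA (2.04, interval 0.15 to 3.92, adjusted p = 0.0808).

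Eomes, a T-box factor needed for trophoblast stem cells, rose in Sorb300 and in ND. Its levels were 25.7, 20.6 and 15.2 CPM in Sorb300, 4.55, 2.30 and 3.34 CPM in RA, 16.3, 11.6 and 4.62 CPM in ND and 1.33, 1.72 and 0.497 CPM in NS. The Sorb300 libraries overlapped with those of ND and stood clear of those of RA and NS. Sorb300 exceeded NS 17.1-fold (log2 fold change 4.10, SE 0.67, adjusted p = 2.29e-05) and RA 5.91-fold (2.56, SE 0.59, adjusted p = 0.000737). The 3 RA libraries lay above the 3 NS libraries, but the difference missed the threshold (1.54, 95% interval 0.17 to 2.91, adjusted p = 0.0944).

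Elf5, an ETS factor of trophoblast stem cells, was barely detected in any group and did not pass the filter on low counts. The 36 libraries held 29 counts of it, in 9 libraries. Sorb300 libraries held 1, 9 and 0 counts, RA libraries 0, 0 and 0, ND libraries 0, 1 and 0 and NS libraries 2, 0 and 0, and the 24 toxicant libraries held 16 counts in all. The 10 Sorb300 counts came almost all from library 2. Per scaled total they were 4.72 times those of NS, with an exact 95% interval of 1.01 to 44.3 for counting error only, which leaves out the spread between libraries. Against the 3 RA libraries without a count, taken at 3 counts over the group (0.184 CPM), Sorb300 counts were 4.62-fold higher per scaled total. This ratio also leaves out the spread between libraries. With no filter on low counts Elf5 was called higher in Sorb300 than in the mean of the 8 toxicant groups (log2 fold change 2.87, adjusted p = 0.022) and in no other comparison among Sorb300, RA, ND, NS and that mean. Without Sorb300 library 2 that call was lost (0.31, adjusted p = 0.687).

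Tcfap2c, which encodes AP-2 gamma, was expressed in all conditions and had its lowest group means in the 2 groups without LIF. It stood at 136, 150 and 124 CPM in Sorb300, at 86.1, 95.7 and 80.9 CPM in RA, at 52.0, 30.6 and 60.8 CPM in ND and at 144, 168 and 144 CPM in NS. Every RA library lay below every NS library, whereas the Sorb300 and NS libraries overlapped. The RA libraries overlapped with those of Cort10, which had LIF and averaged 91.2 ± 32.7 CPM. The fall in RA against NS was 1.74-fold (log2 fold change -0.80, SE 0.23, adjusted p = 0.0112). It missed the threshold without NS library 2 (-0.64, adjusted p = 0.0731). Sorb300 was 1.56-fold higher than RA (0.64, SE 0.23, adjusted p = 0.0259), a call lost without Sorb300 library 2 (0.48, adjusted p = 0.17), Sorb300 library 3 (0.65, adjusted p = 0.0539), RA library 1 (0.63, adjusted p = 0.0683) or RA library 3 (0.59, adjusted p = 0.0907). Between Sorb300 and NS the log2 fold change was -0.15 with a 95% interval of -0.62 to 0.31 (adjusted p = 0.648).

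Gata3, a zinc finger factor of trophectoderm, rose in both treatments to levels that could not be told apart. It stood at 50.9, 61.3 and 92.4 CPM in Sorb300, at 66.0, 47.7 and 65.9 CPM in RA, at 1.37, 1.77 and 5.20 CPM in ND and at 4.32, 5.17 and 4.72 CPM in NS. All 6 treated libraries lay far above all ND and NS libraries. The rise was 14.2-fold in Sorb300 against NS (log2 fold change 3.83, SE 0.63, adjusted p = 2.76e-05) and 12.5-fold in RA against NS (3.65, SE 0.62, adjusted p = 6.35e-05). Sorb300 against RA gave 0.18 with a 95% interval of -0.90 to 1.26 (adjusted p = 0.816).

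Gata2, the related factor that activates genes of trophoblast giant cells, had the same means in both treatments but was uneven between NS libraries. Sorb300 libraries held 17.3, 50.4 and 23.9 CPM, RA libraries 35.5, 31.9 and 23.7 CPM, ND libraries 1.37, 0.644 and 0.577 CPM and NS libraries 1.33, 4.92 and 18.9 CPM. NS library 3 lay above the lowest Sorb300 library and below all RA libraries. The averages were 30.5 ± 17.5 CPM in Sorb300, 30.4 ± 6.04 CPM in RA and 8.38 ± 9.28 CPM in NS. Neither treatment passed against NS (Sorb300 1.84, 95% interval -0.39 to 4.07, adjusted p = 0.206, and RA 1.83, interval -0.39 to 4.05, adjusted p = 0.228). Without NS library 3 the values were 3.23 in Sorb300 and 3.28 in RA, neither past the threshold, and Sorb300 without its library 2 gave 1.23. For Sorb300 against RA the log2 fold change was 0.01 with an interval of -2.09 to 2.11.

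The NS value of Gata2 belongs to a wider pattern over replicate numbers. In the 9 groups with LIF other than Sorb300, library 3 was the highest of its group in 9 of 9, at 7.31 to 25.4 CPM (median 13.3), against 0.711 to 6.82 CPM (median 1.88) in libraries 1 and 2. Ribosomal protein genes took 15.9 to 18.7% of the counts in these libraries 3 and 10.96 to 14.4% in libraries 1 and 2. The 15 markers of extraembryonic endoderm summed to 1299 to 2360 CPM in libraries 3 and 838 to 1189 CPM in libraries 1 and 2. Eomes moved the other way, with library 3 the lowest in 7 of 9 groups. Library 3 was not the highest for Gata2 in Sorb300 (17.3, 50.4 and 23.9 CPM in libraries 1 to 3) or in RA (35.5, 31.9 and 23.7 CPM). Nor was it in ND, where the counts were few, at 7, 4 and 4 in libraries 1 to 3. With the libraries numbered 3 of every group left out, an alternative chosen after the data were seen, the log2 fold change of Gata2 was 3.36 in Sorb300 against NS and 3.41 in RA against NS. These values are a description, since the libraries were left out in part because Gata2 was high in them. The labels do not say what the number 3 stands for beyond the replicate, and the part of the ribosomal and endoderm values in this pattern was not tested.

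**Figure D2:**
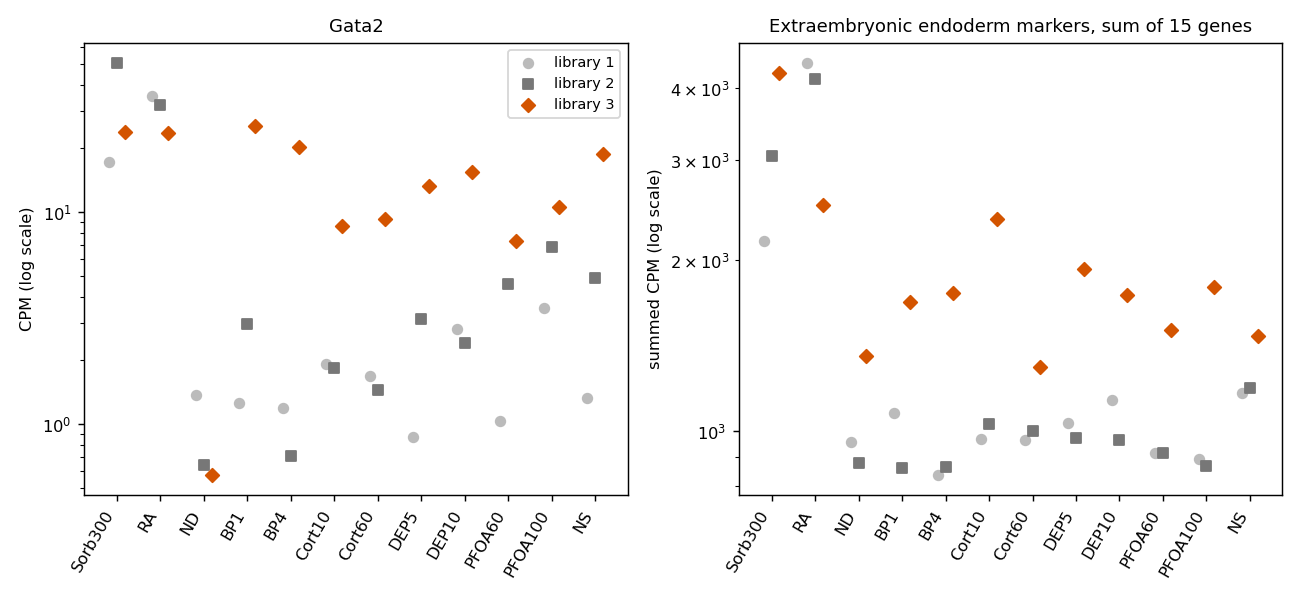
Gata2 (left) and the summed level of 15 extraembryonic endoderm markers (right) in every library, in CPM on log axes, with the symbol giving the replicate number. In the 9 groups with LIF other than Sorb300, the libraries numbered 3 lie at 7.31 to 25.4 CPM of Gata2 and 1299 to 2360 CPM of the marker sum, above the other libraries of the same group.

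Hand1, a basic helix-loop-helix factor that drives the formation of trophoblast giant cells, had the largest fold change over NS of the 7 tested genes in Sorb300. It stood at 103, 198 and 239 CPM in Sorb300, at 44.3, 43.7 and 17.6 CPM in RA, at 4.51, 4.51 and 3.61 CPM in ND and at 5.32, 8.61 and 12.7 CPM in NS. The 3 Sorb300 libraries lay above the 3 RA libraries, and these above all others. Sorb300 was 20.02-fold above NS (log2 fold change 4.32, SE 0.53, adjusted p = 4.33e-07). RA was 3.90-fold above NS (1.96, SE 0.50, adjusted p = 0.00431), and Sorb300 was 5.13-fold above RA (2.36, SE 0.48, adjusted p = 0.000206). Leaving out any 1 library changed none of these 3 calls.

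Ascl2, an imprinted helix-loop-helix gene of the ectoplacental cone and spongiotrophoblast, rose in Sorb300 and was not higher in RA. Its levels were 31.6, 74.9 and 88.2 CPM in Sorb300, 29.7, 29.3 and 10.6 CPM in RA, 22.2, 10.9 and 19.6 CPM in ND and 31.3, 22.1 and 26.6 CPM in NS. Sorb300 library 1 lay just above the highest RA and NS libraries, and the other two well above them. The rise was 2.42-fold against NS (log2 fold change 1.28, SE 0.36, adjusted p = 0.00763) and 2.80-fold against RA (1.49, SE 0.37, adjusted p = 0.00153). Against NS the call was lost without Sorb300 library 3 (1.02, adjusted p = 0.0582). With the libraries numbered 3 of every group left out, Ascl2 passed neither against NS (1.00, adjusted p = 0.0773) nor against RA (0.79, adjusted p = 0.134). RA against NS gave -0.21 with a 95% interval of -0.95 to 0.53.

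**Figure D3:**
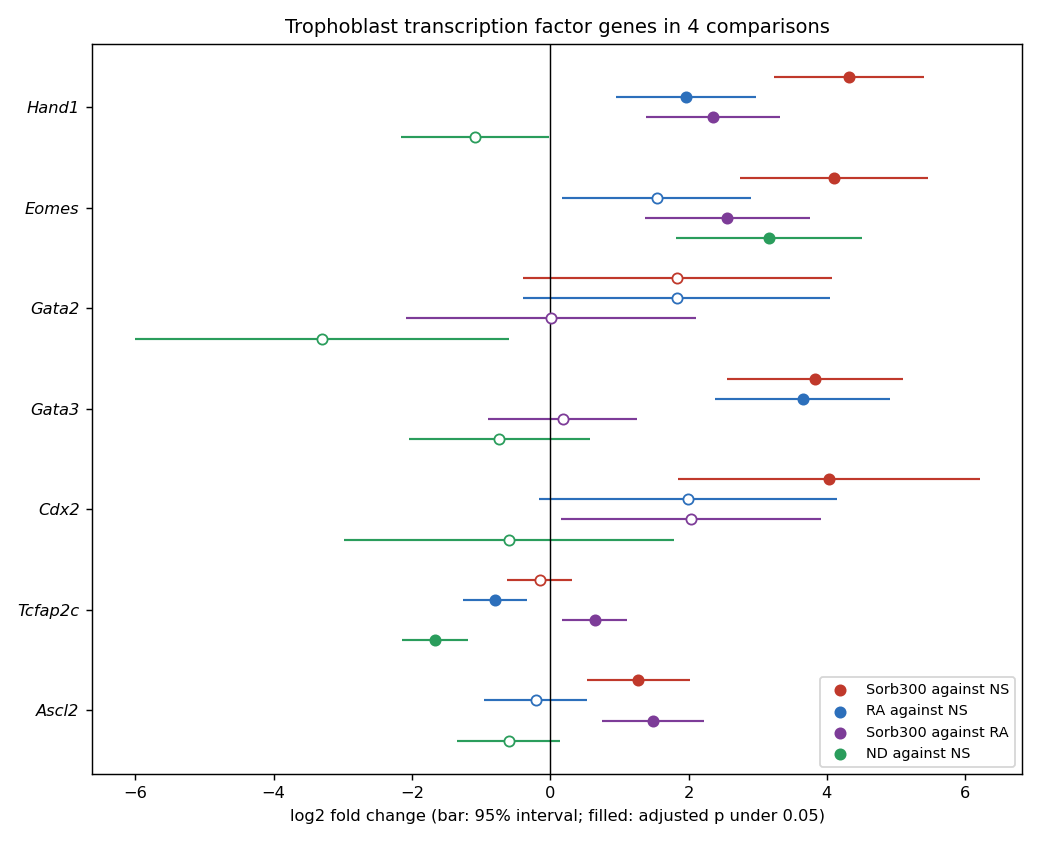
Log2 fold changes of the 7 tested genes in 4 comparisons (points, filled where the adjusted p was under 0.05) with 95% intervals (bars). Hand1, Eomes, Gata3, Cdx2 and Ascl2 are filled on the positive side in Sorb300 against NS, and Gata2 has the widest intervals, from -0.39 to 4.07 in that comparison.

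The libraries of a group did not rank alike for all genes. Within Sorb300, library 1 was the lowest for Hand1, Gata2, Gata3, Cdx2 and Ascl2 and the highest for Eomes. The sum of the 15 extraembryonic endoderm markers was 2159, 3043 and 4260 CPM in Sorb300 libraries 1 to 3, so that library 1 was the lowest there too. Within RA, library 3 was the lowest for Hand1, Gata2 and Ascl2 and had the lowest endoderm sum, 2497 CPM against 4428 and 4164 CPM in libraries 1 and 2. The endoderm sums of ND and NS lay at 881 to 1359 CPM and 1165 to 1473 CPM.

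Other cell types' markers differed between the 2 treatments as well. The 7 embryonic stem cell markers summed to 2901 to 3341 CPM in Sorb300, 320 to 572 CPM in RA and 2862 to 3702 CPM in NS. Of these 7 markers, 1 was higher and 1 lower in Sorb300 than in NS, and 7 were lower in RA than in NS. Over all genes tested, 15.1% were higher and 15.2% lower in Sorb300 than in NS, and 10.3% higher and 13.8% lower in RA. Over NS, extraembryonic endoderm markers were called in the direction of Gata3 more often than against it. Of 14 tested, 6 were higher and 1 lower in Sorb300 than in NS, and 12 were higher and 0 lower in RA than in NS. Against RA, 1 was higher and 6 lower in Sorb300 (median log2 fold change -1.85), where Gata3 gave 0.18 and was not called. The 10 fibroblast and feeder markers summed to 28.8 to 40.0 CPM in Sorb300, 394 to 494 CPM in RA and 53.2 to 106 CPM in NS. The 12 markers of primitive streak and mesoderm, the other sites of Eomes, Hand1 and Cdx2, summed to 15.99 to 25.7 CPM in Sorb300, 26.3 to 46.02 CPM in RA, 26.4 to 33.5 CPM in ND and 17.6 to 29.6 CPM in NS. Of 10 tested, 0 were higher and 1 was lower in Sorb300 than in NS, and 3 were higher and 2 lower in RA than in NS. Against RA, 0 were higher and 2 lower in Sorb300. The 7 surface ectoderm markers summed to 22.8 to 62.9 CPM in Sorb300, 19.4 to 29.2 CPM in RA and 11.3 to 17.0 CPM in NS, so that every Sorb300 sum lay above every NS sum. Of 4 tested, 1 was higher and 0 lower in Sorb300 than in NS, and 3 were higher and 1 lower in Sorb300 than in RA. In Sorb300 against RA 20.6% of all genes were higher and 17.5% lower. Trp63 was at 0 in every Sorb300 and NS library, and Tcfap2b in every NS library. The 7 blood and endothelium markers summed to 102 to 170 CPM in Sorb300, 31.6 to 38.8 CPM in RA and 105 to 129 CPM in NS. The part of other cell types in the levels of the 8 genes was not tested.

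LIF withdrawal alone moved 2 of the 7 tested genes past the threshold. In ND against NS, where 1.19% of all genes were called, 0.259% higher and 0.933% lower, Eomes was higher (log2 fold change 3.17, adjusted p = 0.00972) and Tcfap2c lower (-1.67, adjusted p = 0.000113). With the replicate number as a block, which this comparison allows because same-numbered libraries deviated together, 552 instead of 161 genes were called, and the count of the 8 stayed at 2. The Eomes call was lost without ND library 1 (2.77, adjusted p = 0.059) or NS library 3 (2.81, adjusted p = 0.112). Hand1 was lower in all 3 ND libraries than in all NS libraries, but its log2 fold change of -1.09 missed the threshold (adjusted p = 0.39). Gata2 gave -3.30 with a 95% interval of -6.01 to -0.59 (adjusted p = 0.271), and -1.90 without NS library 3.

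Retinoic acid, set against ND, which also lacked LIF, raised 4 of the 7 tested genes and lowered 1, where 18.2% of all genes were called, 8.05% higher and 10.1% lower. Hand1 was higher in RA than in ND (log2 fold change 3.05, adjusted p = 7.28e-05), as were Gata3 (20.9-fold, 4.38, adjusted p = 7.07e-06), Gata2 (35.0-fold, 5.13, adjusted p = 0.00759) and Tcfap2c (1.83-fold, 0.87, adjusted p = 0.0075). Gata2, which did not pass against NS, thus did so against ND, whose 3 libraries held at most 1.37 CPM. The Tcfap2c call was lost without ND library 2 (0.63, adjusted p = 0.0891). For Gata3 the value without ND library 3 was 5.26. Eomes went the other way and was 3.09-fold lower in RA than in ND (-1.63, adjusted p = 0.0438). That call was lost without ND library 1 (-1.17, adjusted p = 0.247), ND library 2 (-1.58, adjusted p = 0.1), RA library 1 (-1.90, adjusted p = 0.0706), RA library 2 (-1.44, adjusted p = 0.149) or RA library 3 (-1.61, adjusted p = 0.113). Cdx2 was above ND in every RA library and missed the threshold (2.59, adjusted p = 0.0872), with 3.62 without ND library 2. In the fit of only the groups compared it passed (2.68, adjusted p = 0.0186).

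Against ND, Sorb300 raised 6 of the 7 tested genes and lowered 0, where 37.7% of all genes were called, 19.3% higher and 18.5% lower. Hand1 was 42.6-fold higher (log2 fold change 5.41, adjusted p = 7.83e-09), Gata2 35.3-fold (5.14, adjusted p = 0.00345), Gata3 23.7-fold (4.56, adjusted p = 1.6e-06) and Cdx2 24.7-fold (4.63, adjusted p = 0.0011). Ascl2 (3.67-fold) and Tcfap2c (2.86-fold) were also higher. Eomes, the gene that ND itself raised over NS, was not called (0.93, 95% interval -0.17 to 2.04, adjusted p = 0.179). For Cdx2 the log2 fold change was 5.66 without ND library 2 and 4.01 without ND library 3, for Gata3 5.37 without ND library 3, and for Gata2 4.52 without Sorb300 library 2.

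None of the 8 toxicant groups raised or lowered any of the genes by the adjusted test. Of 56 tests against NS (7 genes in 8 groups) edgeR called 0 and DESeq2 called 0, and 10 had an unadjusted p under 0.05, with a lowest adjusted p of 0.482. In 7 of the 8 groups no gene at all was called against NS, and in PFOA60 10 genes were (0.0741% of all, 0.00741% higher and 0.0667% lower). These counts over all genes come from the fit without the replicate block. With the block, 0 of the tests of the 7 genes passed as well. The authors' deposited tables call 60 genes in PFOA60, 9 in Cort60, 2 in BP4, 1 in BP1 and 1 in PFOA100. In Cort10, DEP5 and DEP10 they call 0, and in no toxicant group any of the 8 genes. The 10 unadjusted results were 4 higher, all of them Eomes, and 6 lower. Eomes had a positive log2 fold change in 8 of 8 groups, from 0.92 to 1.72, and Hand1 a negative one in 8 of 8, from -1.35 to -0.20, but all 8 comparisons use the same 3 NS libraries, in which Eomes was low. In the 24 toxicant libraries Hand1 ran from 1.33 to 14.8 CPM (median 5.38), Eomes from 0.477 to 6.55 CPM (median 2.80) and Gata3 from 0.422 to 14.3 CPM (median 3.48). Cdx2 had no count in 11 of these 24 libraries, among them all of Cort60, and reached at most 2.97 CPM. Tcfap2c ran from 53.9 to 180 CPM (median 118) and Ascl2 from 12.9 to 34.6 CPM (median 22.2).

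Set against the mean of the 8 toxicant groups, which had LIF and growth effects but no sorbitol, Sorb300 was higher for 6 of the 7 tested genes and lower for 0, where 49.7% of all genes were called, 27.0% higher and 22.7% lower. Hand1 was 31.9-fold higher (log2 fold change 5.00, adjusted p = 4.17e-16), Cdx2 37.0-fold (5.21, adjusted p = 1.53e-08), Gata3 16.8-fold (4.07, adjusted p = 8.08e-12) and Eomes 6.86-fold (2.78, adjusted p = 3.98e-08). The lowest Sorb300 library exceeded the highest toxicant library for each of these 4 genes. The share of all genes tested that separate in this way was not counted. Ascl2 rose 2.89-fold (adjusted p = 2.41e-06), and Gata2 5.42-fold (2.44, adjusted p = 0.00372), a call lost without Sorb300 library 2 (1.801, adjusted p = 0.102). RA against the same mean was higher for Hand1 (2.64), Gata3 (3.89), Gata2 (2.43) and Cdx2 (3.17) and lower for Tcfap2c (-0.46, adjusted p = 0.0415), where 37.6% of all genes were called, 19.1% higher and 18.4% lower. The fall of Tcfap2c was lost in 15 of 27 fits that left out 1 library, with a log2 fold change of -0.52 to -0.39 over the 27.

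By group mean, Sorb300 was first of the 12 groups for 7 of the 8 genes, Hand1, Eomes, Gata2, Gata3, Cdx2, Ascl2 and Elf5. Its libraries stood clear of the next group for Hand1 (RA), Cdx2 (RA) and Ascl2 (BP1), and overlapped with it for Eomes (ND), Gata2 and Gata3 (RA) and Elf5 (DEP10). For Ascl2 they did overlap with DEP10, ranked below BP1. DEP10 library 1 held 34.6 CPM and Sorb300 library 1 held 31.6 CPM. The Gata2 means of Sorb300 and RA were 30.5 and 30.4 CPM. For Elf5 the first rank rests on Sorb300 library 2, with 9 counts against 1 and 0 in libraries 1 and 3. How many of all genes have Sorb300 first, or clear of the next group, was not counted. For Tcfap2c the order began with PFOA100 at 156 ± 21.2 CPM, PFOA60 at 154 ± 15.0 CPM and NS at 152 ± 14.0 CPM, whose libraries overlapped. It ended with RA and ND, at 87.5 ± 7.52 and 47.8 ± 15.5 CPM, which did not overlap with each other. RA did overlap with Cort10, ranked just above it at 91.2 ± 32.7 CPM. Over the 12 group means of log2 CPM, Gata3 and Cdx2 had a Pearson correlation of 0.93, Gata2 and Gata3 of 0.92 and Hand1 and Cdx2 of 0.89, while Eomes and Tcfap2c had -0.33. These correlations describe 12 points, and in the 3 positive pairs Sorb300 and RA are the high groups of both genes.

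Among 9448 other genes with at least 10 CPM in 1 group or more, the patterns over the 12 group means most like those of each gene had correlations between 0.82 and 0.98. Hand1 was nearest to Scarna8 (0.97), Akr1cl and Hexim1, Cdx2 to Tmed3 (0.98), Ipo13 and Sirt7, and Ascl2 to Ak4 (0.95), Nsf and Htra1. Eomes was nearest to Zfp462 (0.94), Tnrc6c and Ube4b. For Gata3 they were Sparc (0.96), a basement membrane protein gene of extraembryonic endoderm, Os9 and Cryab, and for Gata2 the X-linked placental homeobox gene Rhox6 (0.96), Taf7l and Ngfrap1. Tcfap2c was nearest to Rab3a (0.89), to the LIF target Socs3 (0.82) and to Sik1.

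Of 17 other listed regulators of trophoblast 14 were tested, without Dlx5, Fosl1 and Pparg. In Sorb300 against NS 5 were higher and 1 lower, with a median log2 fold change of 0.67 over the 14. Over all genes tested 15.1% were higher and 15.2% lower. Klf5, a zinc finger factor shared by trophectoderm and stem cells, averaged 1158 ± 220 CPM in Sorb300 and 436 ± 67.2 CPM in NS (1.41, adjusted p = 6.97e-06). Tead4, the DNA-binding partner of Yap1 upstream of Cdx2 in the blastocyst, averaged 11.1 ± 5.14 CPM in Sorb300 and 1.93 ± 0.419 CPM in NS (2.50, adjusted p = 0.0029). Sox21, an SRY-box factor, averaged 28.3 ± 7.35 CPM in Sorb300 and 5.43 ± 2.49 CPM in NS (2.39, adjusted p = 0.00428). The others were Gcm1, the factor of syncytiotrophoblast formation (3.62), Msx2 (2.49) and, as the lower one, Wwtr1 (-0.82), named here after their values were seen.

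In RA against NS 3 of the 14 were higher and 1 lower (median 0.72), against 10.3% higher and 13.8% lower over all genes. Ets2 averaged 87.7 ± 16.7 CPM in RA and 42.3 ± 10.3 CPM in NS (1.05, adjusted p = 0.000803), and Id2, an inhibitor of helix-loop-helix factors, 320 ± 46.7 CPM in RA and 96.6 ± 45.4 CPM in NS (1.72, adjusted p = 0.0199). The third was Gcm1 (3.01), which was thus the 1 gene of the list higher in both treatments. The share of all genes higher in both was not counted. Esrrb, an orphan nuclear receptor of both stem cell kinds, averaged 28.4 ± 10.7 CPM in RA and 216 ± 11.9 CPM in NS (-2.93, adjusted p = 2.45e-09).

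In Sorb300 against RA 3 of the 14 were higher and 2 lower (median 0.33), shares near those over all genes (20.6% higher, 17.5% lower). Esrrb averaged 312 ± 84.2 CPM in Sorb300 and 28.4 ± 10.7 CPM in RA (log2 fold change 3.46, adjusted p = 3.16e-11). Klf5 (1.88, adjusted p = 2.41e-08) and Sox21 (1.81) were also higher in Sorb300, Ets2 (-1.28, adjusted p = 3.16e-05) and Wwtr1 (-1.04) lower. Pparg, not tested, had 10 counts in Sorb300, 45 in RA and 0 in ND and NS.

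Of 26 listed genes that trophoblast uses, rather than those that regulate it, 20 were tested. In Sorb300 against NS 9 were higher and 1, the protease gene Mmp9, lower (median log2 fold change 0.91). Over all genes tested 15.1% were higher and 15.2% lower. Lgals3, which encodes galectin-3, averaged 460 ± 202 CPM in Sorb300 and 65.1 ± 23.8 CPM in NS (2.82, adjusted p = 3.51e-05). The growth factor gene Bmp4 averaged 160 ± 71.9 CPM in Sorb300 and 43.3 ± 11.4 CPM in NS (1.89, adjusted p = 7.84e-05).

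In RA against NS 12 of the 20 were higher and 2 lower, Cdh3 and Pcsk6 (median 1.502). Over all genes tested 10.3% were higher and 13.8% lower. Peg10, an imprinted retrotransposon-derived gene needed for the placenta, averaged 1290 ± 142 CPM in RA and 161 ± 65.8 CPM in NS (8.02-fold, adjusted p = 3.04e-08). The keratin genes Krt18 (2.71, adjusted p = 3.16e-06) and Krt8 (3.15, adjusted p = 1.23e-05) of simple epithelium followed. Called higher over NS in both treatments were 6 genes: Krt18, Krt8, Peg10, Plac1, Rhox6 and Rhox9. Both comparisons use the same NS libraries, and the share of all genes called higher in both was not counted. Simple epithelia and extraembryonic endoderm also express the 2 keratins.

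Between the treatments, 5 of the 20 were higher and 10 lower in Sorb300 than in RA (median -1.03), against 20.6% higher and 17.5% lower over all genes. Lgals3 averaged 460 ± 202 CPM in Sorb300 and 40.3 ± 10.3 CPM in RA (log2 fold change 3.51, adjusted p = 1.05e-06). Dsp, which encodes the junction protein desmoplakin, averaged 33.99 ± 9.91 CPM in Sorb300 and 134 ± 9.35 CPM in RA (-1.97, adjusted p = 8.68e-07), and Peg10 329 ± 49.3 CPM in Sorb300 and 1290 ± 142 CPM in RA (-1.97, adjusted p = 7.69e-06). Bmp4, Cdh3 and Pcsk6 were also higher. Of the genes of mature trophoblast, the placental lactogen gene Prl3d1 and its relatives Prl2c2 and Prl3b1 had no count in any Sorb300, RA, ND or NS library.

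**Figure D4:**
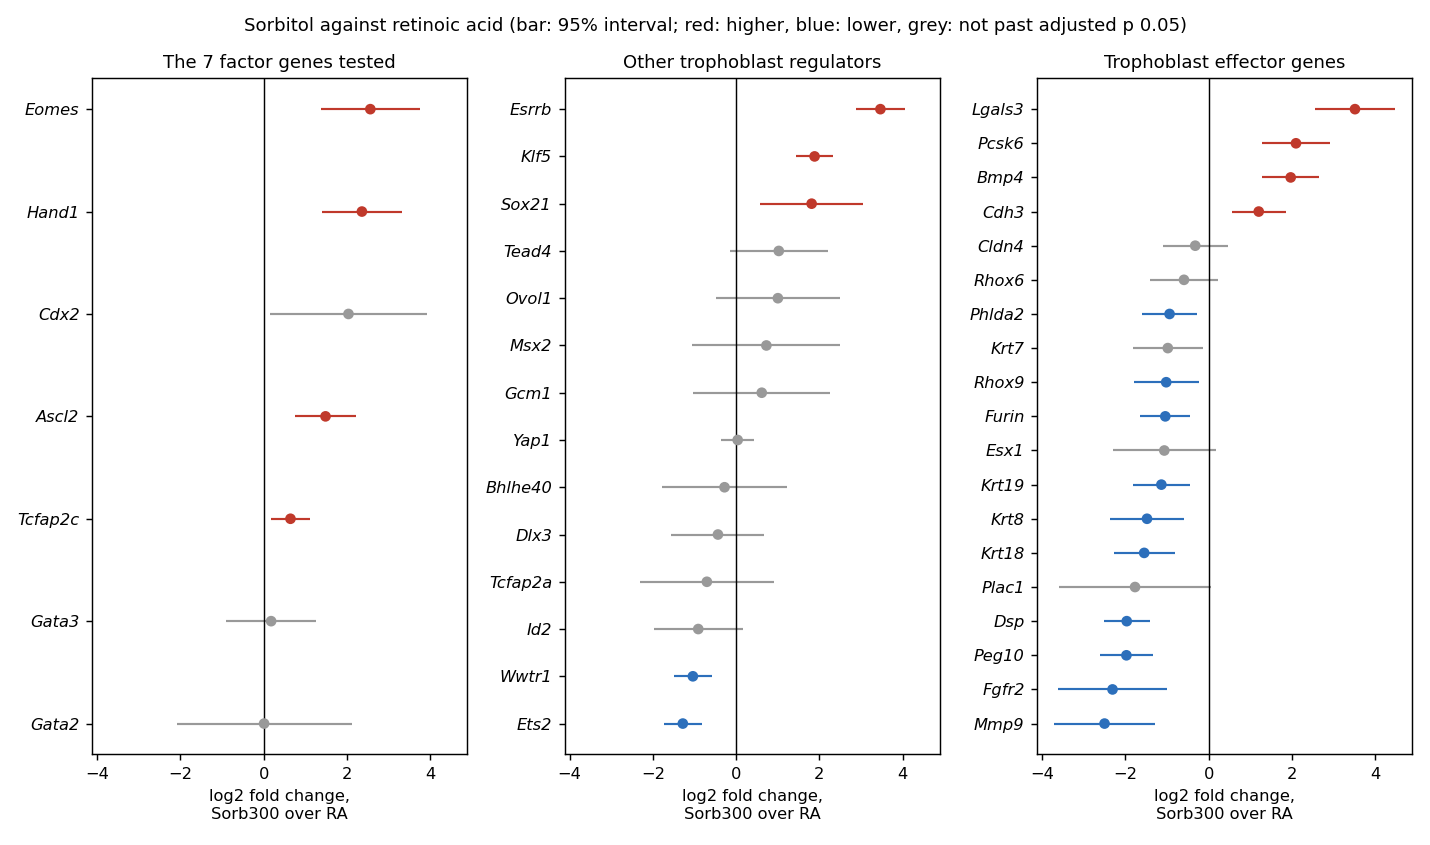
Log2 fold changes of Sorb300 over RA with 95% intervals for the 7 tested factor genes, 14 other trophoblast regulators and 19 of the 20 tested effector genes (red: called higher, blue: called lower, grey: not called). Of the 7 factor genes 4 are red and 0 blue, and of the effector genes drawn 4 are red and 10 blue.

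The authors' deposited tables, made with edgeR per the submitters' processing notes, call the same numbers of the 8 genes at a false discovery rate under 0.05: 5 in the authors' deposited table of Sorb300 against NS, 3 in that of RA against NS and 2 in that of ND against NS. In the authors' deposited table the log2 fold change of Hand1 is 4.29 in Sorb300 against NS and 2.02 in RA against NS.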

How the data were processed

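RNA was extracted with Trizol and sequenced with the Lexogen 3' Quant-seq kit, per the labels' protocols, from biological experiments done in triplicate, per the series' design text. CASAVA 1.8.2, STAR, HTSeq, edgeR and the mouse build mm9 are named in the submitters' processing notes. For strand and annotation, the counting step is not given in the sources used here. Deposited tables hold the authors' raw counts per gene and library. They also hold the authors' log2 fold changes and average log2 CPM, their p-values and false discovery rates, score columns of likelihood ratios, signed folds and group SDs, and signal columns of group means. The score and signal columns were not used.

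The deposited counts of all 36 libraries were tested with edgeR 4.0.16 (R 4.3.3, limma 3.58.1): TMM scaling, the default filter on low counts, 1 term per group, robust quasi-likelihood fits and Benjamini-Hochberg adjustment over all 13498 genes kept, with calls at 0.05. Exact intervals and the floor of 3 counts cover counting error only. The fit was tested on simulated data first. The genes and lists were chosen with earlier results of these data known. Of the 2 other trophoblast lists, up to 3 genes with the smallest adjusted p were named per comparison, and 3 patterns per gene among genes reaching 10 CPM. Of the effector genes, 1 that the counts include is not reported here. Alternatives were a replicate block, DESeq2 1.42.0, its size factors, no filter, only the groups compared and each library left out.

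Same-numbered libraries had a mean correlation of deviations of 0.17, against -0.08 for different numbers. In 7 of 14 comparisons every pair was over 0.1 (NS with ND, both BP doses, Cort10, both DEP doses or PFOA60). The numbers were read as pairs there and in no Sorb300 or RA comparison. The main fit had no replicate term in any comparison, and the block, which uses the numbers, was run only as an alternative.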

Additional observations from a re-analysis of the deposited data

How the results depend on the processing

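The calls of Hand1, Eomes, Gata3 and Cdx2 in Sorb300 against NS, of Hand1 and Gata3 in RA against NS and of Hand1 and Eomes in Sorb300 against RA held under all 12 alternatives run for each. Over these, the adjusted p of Hand1 in Sorb300 against NS ran from 7.59e-15 to 0.000131 and that of Cdx2 from 0.00204 to 0.0308. With the replicate block, 5 instead of 3 of the genes were called in RA against NS, with Eomes (1.61, adjusted p = 0.0318) and Gata2 (2.69, adjusted p = 0.00688) added, and Gata2 also in Sorb300 against NS (2.55, adjusted p = 0.00805). Cdx2 was added in RA against ND (2.85, adjusted p = 0.0425). The numbers do not pair those samples, and the fit of only the groups compared added Cdx2 there too (2.68, adjusted p = 0.0186). In the comparisons that they do pair, the block changed no call of the 8 genes. With the libraries numbered 3 left out, an alternative chosen after seeing the data, 2 instead of 4 genes were called in Sorb300 against RA, without Ascl2 and Tcfap2c (0.59, adjusted p = 0.086), and Tcfap2c was lost in RA against NS (-0.73, adjusted p = 0.0529). Fitted to only the groups compared, Cdx2 was called in Sorb300 against RA (1.97, adjusted p = 0.0117) and Tcfap2c was not (0.59, adjusted p = 0.102). Without the filter Tcfap2c also lost that call (0.56, adjusted p = 0.0833), and Eomes its call in RA against ND (adjusted p = 0.0623), while Elf5 made 7 instead of 6 genes called in Sorb300 against the toxicant mean. With DESeq2 size factors Eomes in RA against ND gave an adjusted p of 0.0543. The causes of these changes were not tested.

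Called genes in Sorb300 against NS numbered 2284 in the fit of only the groups compared instead of 4102, and in RA against ND 4072 instead of 2450. In ND against NS they numbered 552 with the block, 328 with DESeq2 and 42 without the libraries numbered 3, instead of 161. With 1 library left out, called genes numbered 2949 to 4922 in Sorb300 against NS, 1886 to 2867 in RA against NS, 3641 to 6122 in Sorb300 against RA, 32 to 312 in ND against NS, 1509 to 2005 in RA against ND, 3691 to 6013 in Sorb300 against ND, 5050 to 6996 in Sorb300 against the toxicant mean and 3415 to 5237 in RA against it. The counts of the 8 genes were then 4 to 5, 2 to 3, 3 to 4, 1 to 2, 3 to 5, 6, 5 to 6 and 4 to 5 in the same order, and 0 in the toxicant groups.

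Directions turned only for uncalled values. Gata2 in Sorb300 against RA, at 0.01, gave -0.14 with the block, -0.0097 with DESeq2 size factors, -0.066 without the filter, -0.024 in the fit of only the groups compared, -0.012 with DESeq2, -0.055 without the libraries numbered 3 and -0.66 to 0.30 with 1 library left out. Gata3 there gave -0.084 without the libraries numbered 3 and -0.16 to 0.35 with 1 left out. Ascl2 in RA against NS gave 0.21 and -0.45 to 0.15 in these settings. With 1 library left out, Cdx2 in ND against NS ran from -1.63 to 0.50, and in RA against the toxicant mean Eomes ran from -0.049 to 0.40 and Ascl2 from -0.20 to 0.40. Depth limits Elf5, with 29 counts in all, and Cdx2 outside Sorb300. The lists of markers hold genes that other tissues also use, and antisense or overlapping genes cannot be told apart from the genes named where strand was not counted.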
